A study of Mus musculus with 36 samples.

Results

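RU486 added to corticosterone for 6 h was examined in primary mouse astrocyte cultures, as the 3 arrays of cultures given both compounds against the 3 arrays given corticosterone alone. These 6 arrays were taken by their labels from a series of 36. The cultures were brain cells of C57B/6 pups aged P0-P2, which the samples' own label calls cortical, although the growth protocol speaks of cortex or hippocampus. They were kept in DMEM with 10% FBS, so every group also met whatever steroid the serum held. The groups at 6 h, of 3 arrays each, were 100 nM corticosterone with 500 nM RU486, 100 nM corticosterone alone, 500 nM RU486 alone, and vehicle. The same 4 treatments were sampled at 2 and 4 h. Whether replicates were separate cultures is not said in the labels, so the spread behind each p-value is that between arrays and may be technical. Each array holds the RNA of a whole culture, in which fewer cells of a type and less RNA per cell cannot be told apart.

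Corticosterone, the main glucocorticoid of rodents, crosses the membrane and binds the glucocorticoid receptor (Nr3c1), which waits in the cytoplasm in a complex with the chaperone Hsp90 and its partners. The bound receptor moves to the nucleus, where it pairs on palindromic response elements and raises transcription, or holds other factors in check and lowers it. RU486 (mifepristone) binds the same pocket, as well as that of the progesterone receptor, and leaves the receptor in a shape that recruits coactivators poorly. In astrocytes, glucocorticoids are known to act on metabolism, on junction and transport proteins and on secreted factors.

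The values are log2 intensities of bead arrays, each gene read by its brightest probe, and an array's median was 6.79 on this scale. A gene is called when limma's Benjamini-Hochberg adjusted p, from a fit over all 36 arrays and 18935 genes, is under 0.05. Cultures with both compounds, replicate 3, had a median correlation of 0.886 with the other arrays, and vehicle at 6 h, replicate 1, had 0.757, against 0.96 to 0.99 for the other 34. The gap between the log2 intensities of a gene's 2 brightest probes, over the 6148 genes that have 2, deviated from its usual size by a median of 0.532 on the first of these arrays and 0.945 on the second, against 0.098 to 0.303 on the others. The main counts and the called genes are therefore also given without replicate 3 of cultures with both compounds, and comparisons with vehicle without both arrays.

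With RU486 added, classic glucocorticoid-induced genes were lower than with corticosterone alone, among them Fam107a, Fkbp5, Klf9, Tsc22d3, Pdk4 and Sgk1, together with the metabolic genes Prodh, Slc25a33 and Bcat1. The higher genes included Lbh, Phlda1, Btrc and Pde1b, which have different roles. Of the 18935 genes, 265 were called (1.4%), 113 of them lower (0.597%) and 152 higher (0.803%) with both compounds than with corticosterone alone. Without replicate 3, 174 were called (0.919%), 101 lower (0.533%) and 73 higher (0.386%), and 127 genes were called in both fits. Without that array and the vehicle array, the count was 847 (4.47%), with 347 lower (1.83%) and 500 higher (2.64%). Genes called with and without replicate 3 and with no overlap between the 3 arrays of each group numbered 126 (0.665%), 76 lower (0.401%) and 50 higher (0.264%). The 16 lowest and 13 of the 14 highest genes of this set are described one by one below, and counts cover all of them, so their lack of overlap was a condition of the choice.

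**Figure D1:**
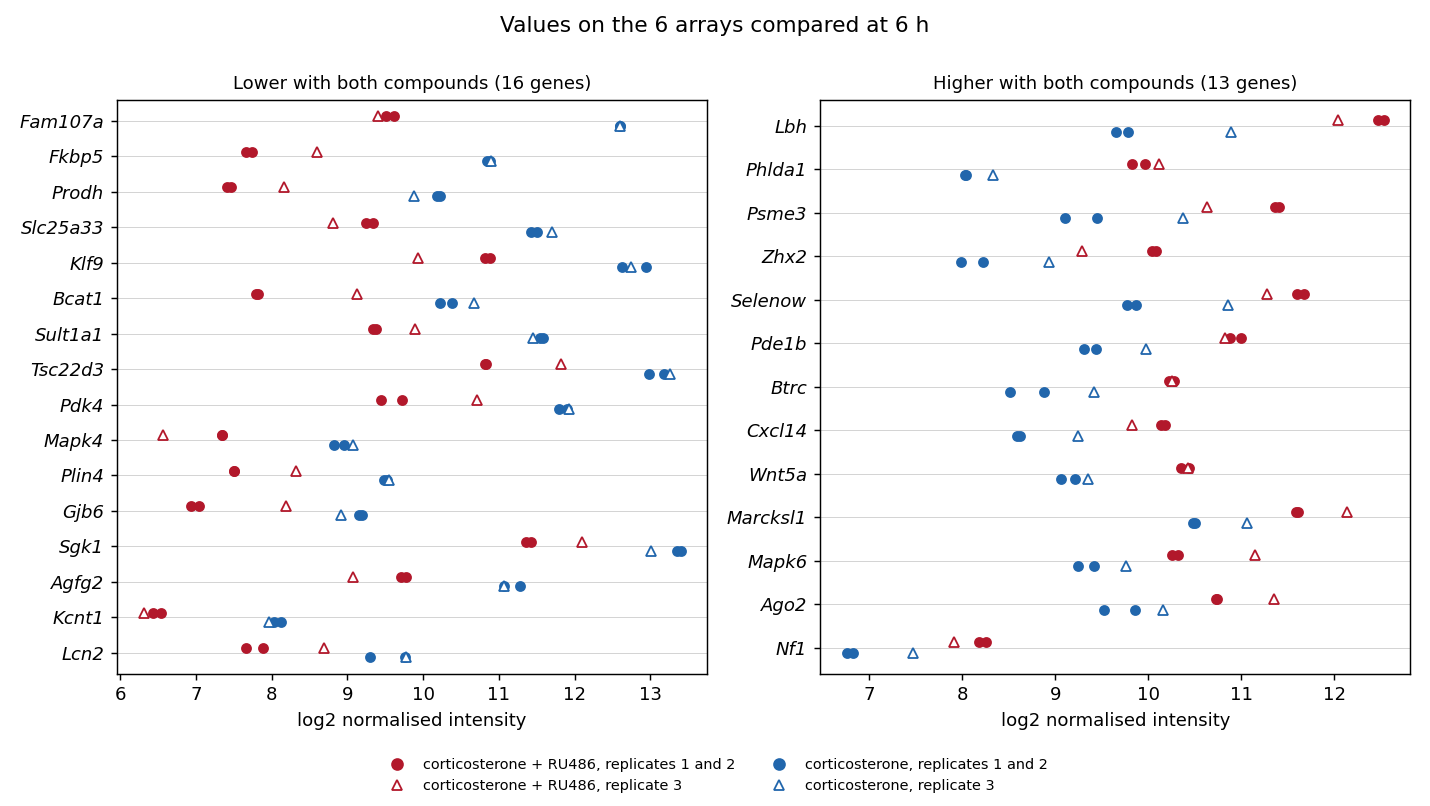
Log2 normalised intensity on the 6 arrays for the 16 genes lowest and 13 of the 14 highest with both compounds, red for cultures with both compounds and blue for corticosterone alone, with open triangles for replicate 3 of each group. The red triangle leans towards the blue points for genes such as Fkbp5 (8.60) and Bcat1 (9.13), and the blue triangle leans towards the red points for Lbh (10.89) and the other higher genes.

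Promoters are shown for 4 of the 9 glucocorticoid-induced genes among the 16 lowest, because their windows hold letters that resemble receptor binding elements. The windows of the other 5, which are Fkbp5, Klf9, Pdk4, Gjb6 and Lcn2, held neither motif. The windows run from 250 bases before to 50 after the transcription start, from RefSeq on GRCm38.p6, and are printed 5′ to 3′ on the gene's strand with the matched letters in capitals. The motif searched first has 13 letters, GNACA and TGTNC with 3 free bases between them, and is its own reverse complement. Otherwise its half-site AGAACA or TGTTCT was searched (on both strands, and free to overlap the longer motif). Fam107a has 3 windows, Sgk1 6 and Tsc22d3 3, and for each the first window found with a match is shown. Fam107a has the 13-letter match at -118 to -106 and Sgk1 at -188 to -176 from the start of that window's transcript. The single window of Sult1a1 has half-sites at -212 to -207 and -34 to -29, and Tsc22d3 has a half-site at -185 to -180.
Fam107a, chr14:8309730-8310029, minus strand: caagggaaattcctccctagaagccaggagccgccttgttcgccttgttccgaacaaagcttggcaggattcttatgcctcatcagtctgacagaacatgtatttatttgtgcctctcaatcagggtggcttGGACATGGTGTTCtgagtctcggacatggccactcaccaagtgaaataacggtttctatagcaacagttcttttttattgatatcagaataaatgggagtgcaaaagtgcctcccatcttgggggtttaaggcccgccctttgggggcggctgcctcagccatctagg
Sgk1, chr10:21993640-21993939, plus strand: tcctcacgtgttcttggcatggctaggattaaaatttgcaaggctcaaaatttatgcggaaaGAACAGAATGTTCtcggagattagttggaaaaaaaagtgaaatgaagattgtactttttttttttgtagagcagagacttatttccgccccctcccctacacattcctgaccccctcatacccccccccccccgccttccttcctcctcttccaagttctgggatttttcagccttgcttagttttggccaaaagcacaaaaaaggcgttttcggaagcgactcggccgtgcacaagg
Sult1a1, chr7:126676369-126676668, minus strand: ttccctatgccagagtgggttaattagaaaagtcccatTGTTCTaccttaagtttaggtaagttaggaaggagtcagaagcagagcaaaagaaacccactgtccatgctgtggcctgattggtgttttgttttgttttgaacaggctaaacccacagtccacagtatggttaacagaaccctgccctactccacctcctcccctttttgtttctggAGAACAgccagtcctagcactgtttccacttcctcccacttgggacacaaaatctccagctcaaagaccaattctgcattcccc
Tsc22d3, chrX:140600473-140600772, minus strand: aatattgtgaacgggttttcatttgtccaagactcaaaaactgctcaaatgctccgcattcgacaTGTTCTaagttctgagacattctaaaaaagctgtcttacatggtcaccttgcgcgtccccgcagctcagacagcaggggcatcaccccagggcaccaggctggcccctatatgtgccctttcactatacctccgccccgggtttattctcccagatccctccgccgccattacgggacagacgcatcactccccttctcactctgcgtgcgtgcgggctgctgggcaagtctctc

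The 13-letter motif was present in 0.475% of 32851 RefSeq windows and the half-site in 19%. Windows could be matched for 80 genes called lower, and 5 of these (6.25%) had the longer motif in any window. They were Car14, a membrane carbonic anhydrase, Fam107a, Folh1, Sgk1 and Slc10a6, and the call of Folh1 lay close to the threshold. Of 109 matched genes called higher, 0 had it, and of all 11383 matched genes tested 51 did (0.448%). Half-sites were in 22 of the 80 lower genes (27.5%), 14 of the 109 higher genes (12.8%) and 1779 of all 11383 (15.6%). These matches describe letters in short windows and were not tested as binding.

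Fam107a and Fkbp5 had the lowest differences of all the named genes. Fam107a, which encodes an actin-associated protein, had log2 intensities of 9.62, 9.51 and 9.41 with both compounds, against 12.60, 12.60 and 12.60 with corticosterone. The 3 arrays with both compounds lay close together, replicate 3 included. The difference was -3.09 (SE 0.31, limma adjusted p = 2.81e-07), an 8.49-fold lower intensity, and -3.03 without replicate 3. Fkbp5, the Hsp90 co-chaperone that lowers the receptor's affinity for hormone, had 7.66, 7.74 and 8.60, against 10.89, 10.85 and 10.90. Its replicate 3 was higher than the other arrays of its group and still below every corticosterone array. Fkbp5 fell by 2.88 (SE 0.25, adjusted p = 2.74e-08), and by 3.18 without that array.

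Tsc22d3 (GILZ), a leucine zipper protein that restrains inflammatory transcription, had 10.82, 10.83 and 11.82 with both compounds and 12.98, 13.18 and 13.26 with corticosterone. The first 2 arrays with both compounds agreed closely and the third was higher than them. The difference was -1.98 (SE 0.29, limma adjusted p = 0.000127), and -2.32 without replicate 3. Sgk1, a kinase that regulates ion channels and transporters, had 11.36, 11.42 and 12.10, against 13.40, 13.35 and 13.01, with replicate 3 again the highest of its group. It fell by 1.62 (SE 0.15, adjusted p = 1.07e-07), and by 1.86 without replicate 3. For Klf9, a Kruppel-like repressor of transcription, the values were 10.88, 10.82 and 9.93 with both compounds and 12.63, 12.94 and 12.74 with corticosterone. Here replicate 3 was the lowest array of its group, and the fall of 2.23 (SE 0.29, adjusted p = 2.68e-05) became 1.93 without it.

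Several of the lowered genes belong to metabolism. Prodh, the mitochondrial enzyme that starts proline breakdown, had 7.47, 7.41 and 8.17 with both compounds, against 10.22, 10.18 and 9.88 with corticosterone. That was a fall of 2.41 (SE 0.28, limma adjusted p = 5.36e-06), with all 3 arrays of each group well apart from the other group's, and the difference was -2.65 without replicate 3. Slc25a33, a mitochondrial carrier of pyrimidine nucleotides, had 9.34, 9.25 and 8.81, against 11.42, 11.51 and 11.70. Bcat1, the cytosolic enzyme that transaminates branched-chain amino acids, had 7.82, 7.80 and 9.13, against 10.22, 10.38 and 10.67. In Bcat1 replicate 3 was more than 1 log2 unit above its group's other arrays and still below every corticosterone array. The differences were -2.40 (SE 0.37, adjusted p = 0.000332) for Slc25a33 and -2.17 (SE 0.24, adjusted p = 2.44e-06) for Bcat1, and without replicate 3 they were -2.24 and -2.61.

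Pdk4, the kinase that shuts down pyruvate dehydrogenase and so spares glucose, had 9.44, 9.72 and 10.71 with both compounds and 11.79, 11.90 and 11.93 with corticosterone. Its difference was -1.92 (SE 0.22, limma adjusted p = 5.36e-06). Sult1a1, a sulfotransferase of phenols, had 9.34, 9.38 and 9.90, against 11.58, 11.55 and 11.45, a difference of -1.99 (SE 0.29, adjusted p = 0.000202). Both genes kept their groups apart with replicate 3 nearest to the corticosterone arrays. Plin4, a lipid-droplet coat protein listed in the file under its older name S3-12, had 7.50, 7.50 and 8.32, against 9.52, 9.48 and 9.55, and fell by 1.75 (SE 0.23, adjusted p = 3.79e-05). Without replicate 3 the falls were 2.29 for Pdk4, 2.17 for Sult1a1 and 2.02 for Plin4.

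The rest of the lowered set included channel, junction and signalling genes. Gjb6, the gap-junction protein connexin 30 that marks astrocytes, had 7.04, 6.93 and 8.19 with both compounds, against 9.20, 9.15 and 8.91 with corticosterone. It fell by 1.70 (SE 0.30, limma adjusted p = 0.00192) and by 2.10 without replicate 3. Kcnt1, a sodium-activated potassium channel, had 6.54, 6.43 and 6.31, against 8.03, 8.12 and 7.96. All 3 arrays of Kcnt1 with both compounds lay under the array median, where no background had been subtracted, so its fall of 1.61 (SE 0.15, adjusted p = 1.48e-07) may understate the change. The Kcnt1 difference was -1.55 without replicate 3. Mapk4, an atypical MAP kinase, had 7.34, 7.34 and 6.57, against 8.82, 8.96 and 9.08, a difference of -1.87 (SE 0.18, adjusted p = 1.55e-07). In Mapk4 replicate 3 was the lowest array, and the fall was 1.61 without it.

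Agfg2, an Arf GTPase-activating protein family member, had 9.78, 9.71 and 9.08 with both compounds and 11.28, 11.07 and 11.07 with corticosterone. Lcn2, a secreted carrier of iron-binding siderophores, had 7.89, 7.66 and 8.69, against 9.76, 9.30 and 9.78. The groups were separate in both genes, with replicate 3 lowest in Agfg2 and highest in Lcn2. The differences were -1.62 (SE 0.17, limma adjusted p = 6.22e-07) for Agfg2 and -1.53 (SE 0.24, adjusted p = 0.000514) for Lcn2, and without replicate 3 they were -1.39 and -1.84. All 16 of the lowest genes were also called when any 1 of the 6 arrays was left out. A second probe was kept for 6 of them: it was called lower as well for Prodh, Klf9, Tsc22d3 and Kcnt1, and neither the second probe of Pdk4 nor the 2 further probes of Agfg2 were called.

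Among the genes higher with both compounds, some encode secreted signals. Cxcl14, a chemokine, had 10.14, 10.18 and 9.83 with both compounds, against 8.59, 8.62 and 9.24 with corticosterone. Corticosterone replicate 3 was the array nearest to the other group. Cxcl14 rose by 1.23 (SE 0.20, limma adjusted p = 0.000514), a 2.35-fold higher intensity. Wnt5a, a Wnt ligand that acts largely outside the beta-catenin pathway, had 10.35, 10.44 and 10.43, against 9.06, 9.21 and 9.35. The Wnt5a groups were each tight and more than 1 log2 unit apart on average, with a difference of 1.19 (SE 0.24, adjusted p = 0.0074). Without replicate 3 of cultures with both compounds, Cxcl14 differed by 1.34 and Wnt5a by 1.18.

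Nuclear and cytoplasmic regulators formed a further group. Lbh, a transcription cofactor of limb and heart, had 12.47, 12.53 and 12.04 with both compounds, against 9.78, 9.65 and 10.89 with corticosterone. It had the highest difference of the named genes, 2.24 (SE 0.48, limma adjusted p = 0.0123), and its spread within the corticosterone group was also wide. Phlda1, a pleckstrin-homology-like protein linked to cell survival, had 9.97, 9.82 and 10.12, against 8.03, 8.04 and 8.33, and rose by 1.83 (SE 0.25, adjusted p = 4.21e-05). Zhx2, a homeobox repressor, had 10.08, 10.04 and 9.29, against 7.99, 8.22 and 8.93, and rose by 1.43 (SE 0.30, adjusted p = 0.00969). In Zhx2 the third arrays of both groups were the ones nearest to each other. Without replicate 3 of cultures with both compounds the differences were 2.39 for Lbh, 1.76 for Phlda1 and 1.68 for Zhx2.

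Pde1b, a calmodulin-dependent phosphodiesterase of cyclic nucleotides, had 11.00, 10.88 and 10.83 with both compounds and 9.31, 9.44 and 9.98 with corticosterone. Btrc, the substrate receptor of the ubiquitin ligase that marks beta-catenin and I-kappa-B for destruction, had 10.22, 10.28 and 10.26, against 8.51, 8.88 and 9.42. In Btrc the arrays with both compounds were nearly equal, replicate 3 included. The differences were 1.33 (SE 0.17, limma adjusted p = 2.16e-05) for Pde1b and 1.32 (SE 0.17, adjusted p = 2.68e-05) for Btrc. Psme3, a proteasome activator, had 11.36, 11.41 and 10.63, against 9.11, 9.45 and 10.37, and Selenow, a small selenoprotein listed as Sepw1, had 11.67, 11.60 and 11.28, against 9.77, 9.87 and 10.86. In Psme3 and Selenow the third arrays of the groups were the ones nearest to each other. Psme3 rose by 1.49 (SE 0.32, adjusted p = 0.0118) and Selenow by 1.35 (SE 0.28, adjusted p = 0.00972). Without replicate 3 of cultures with both compounds the differences were 1.36 for Pde1b, 1.31 for Btrc, 1.74 for Psme3 and 1.47 for Selenow.

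The other higher genes were Marcksl1, an actin-binding substrate of protein kinase C, Mapk6, an atypical MAP kinase, Ago2, the slicing Argonaute protein (listed as 2310051F07Rik), and Nf1, a GTPase activator for Ras. Their differences lay between 1.09 for Nf1 (SE 0.23, limma adjusted p = 0.0109) and 1.10 for the other three (SE 0.19 to 0.21, adjusted p of 0.00189 to 0.00438). Without replicate 3 of cultures with both compounds they were 0.92 for Marcksl1, 0.81 for Mapk6, 0.89 for Ago2 and 1.20 for Nf1, and Mapk6 then had an adjusted p of 0.05 after rounding, just under the threshold. Of the 14 higher genes, 7 were called whichever of the 6 arrays was left out. Lbh was not called without corticosterone replicate 1 (limma adjusted p = 0.107) or without replicate 2 (adjusted p = 0.114). The same held for Psme3, Zhx2, Selenow and Nf1, while Wnt5a and Mapk6 lost their calls only without corticosterone replicate 1. Among further kept probes, that of Pde1b was called higher, and 0 of those of Lbh (1), Btrc (3), Cxcl14 (1), Wnt5a (2), Marcksl1 (3), Mapk6 (3), Ago2 (2) and Nf1 (1) were.

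Corticosterone replicate 3 moved with the higher genes. It was the highest of the 3 corticosterone arrays in 132 of the 152 genes called higher (86.8%), against 7039 of all 18935 (37.2%), and exceeded the mean of the other two by a median of 0.28 there and 0.0 over all genes. In the 113 lower genes it was the lowest in 58 (51.3%), against 36.7% of all genes. Its correlations with replicates 1 and 2 of cultures with both compounds were 0.992 and 0.993, and with corticosterone replicates 1 and 2 they were 0.991 and 0.995. Left out, it gave 317 called genes, 205 of them higher. Without corticosterone replicate 1 or 2 the count was 90, with 26 higher, or 93, with 35 higher, while 64 and 58 genes were still called lower. Replicate 3 was also the highest array of RU486 alone at 6 h for many of the named higher genes. Examples are Lbh (10.39, 10.17 and 11.29), Phlda1 (8.41, 8.85 and 9.44) and Nf1 (6.77, 6.85 and 7.41), but Zhx2, Selenow, Btrc and Ago2 did not follow. The part of corticosterone replicate 3, or of a replicate number shared by groups, in the differences above was not tested.

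**Figure D2:**
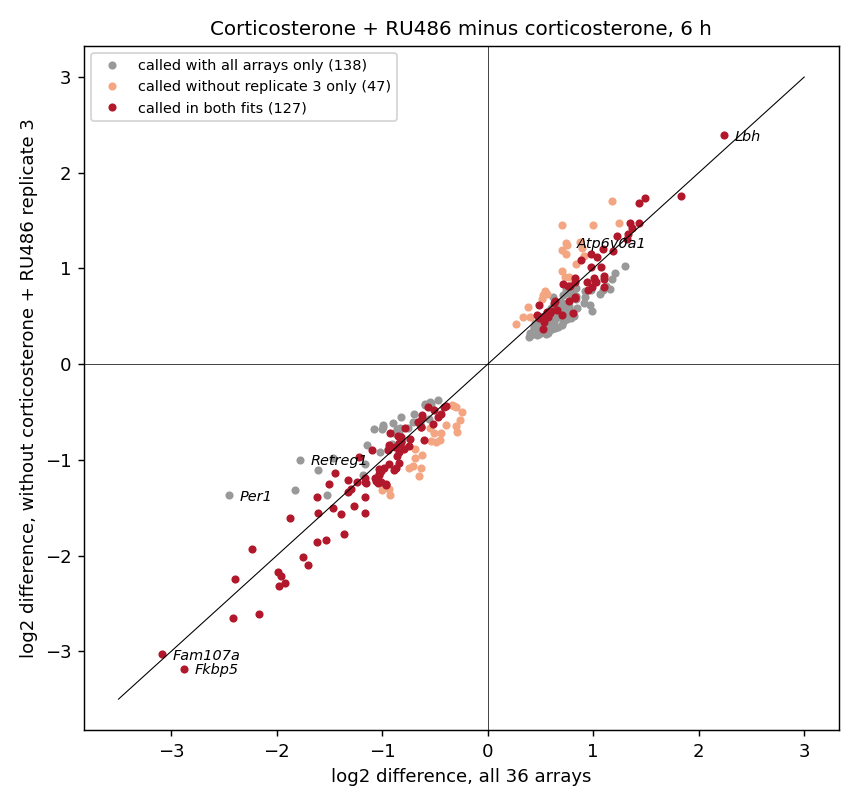
Log2 difference, corticosterone with RU486 minus corticosterone at 6 h, in the fit of all 36 arrays (x axis) and without replicate 3 of cultures with both compounds (y axis), for genes called in either fit, with the line of equality. Fam107a and Fkbp5 stay near -3 both ways, while Per1 (-2.45 with the array, -1.37 without) and Retreg1 (-1.78, -1.0) lie off the line.

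Among genes called with or without replicate 3, it moved 3 the furthest. Per1, a core repressor of the circadian clock and a direct glucocorticoid target, had 10.02, 9.90 and 6.70 with both compounds, against 10.97, 11.55 and 11.46 with corticosterone. The third array was more than 3 log2 units under the first 2, at about the array median. The difference was -2.45 (limma adjusted p = 0.0168) with it and -1.37 (adjusted p = 0.132) without it, and -1.37 (adjusted p = 0.000248) when the vehicle array was left out as well. Retreg1, a receptor for autophagy of the endoplasmic reticulum listed as Fam134b, had 9.58, 9.38 and 7.12, against 10.84, 10.40 and 10.19. Its difference of -1.78 (adjusted p = 0.0265) became -1.0 (adjusted p = 0.25). Atp6v0a1, a subunit of the proton pump of acidic vesicles, had 11.25, 11.17 and 9.60, against 9.62, 9.76 and 10.43, so that the groups overlapped through the third arrays, and 0.74 (adjusted p = 0.294) became 1.27 (adjusted p = 0.0102).

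The values of the other treatments at 6 h place the changed genes against vehicle and against RU486 alone. These comparisons share arrays with the one above, so their values are set side by side. Fkbp5 was 7.66, 7.74 and 8.60 with both compounds, 10.89, 10.85 and 10.90 with corticosterone, 7.62, 7.61 and 7.73 with RU486 alone, and 8.43, 7.37 and 7.54 with vehicle. For Sgk1 the sets were 11.36, 11.42 and 12.10 with both, 13.40, 13.35 and 13.01 with corticosterone, 11.21, 11.29 and 11.21 with RU486, and 10.94, 11.14 and 11.26 with vehicle. In both genes corticosterone alone stood apart from the other 3 groups. Without the 2 arrays that stand apart, both compounds minus vehicle was 0.24 (SE 0.21) for Fkbp5 and 0.19 (SE 0.14) for Sgk1, where corticosterone minus vehicle was 3.43 and 2.05. Over the 16 lowest genes, both compounds minus vehicle ran between -0.48 for Agfg2 and 1.14 for Fam107a, with a median of 0.22, and 15 of 16 were above vehicle. RU486 alone minus vehicle was also above 0 for all of them but Plin4 (-0.03). By limma 0 of the 16 were called with both compounds against vehicle in that fit. An unadjusted p under 0.05 was found for 4 of them, and for 1421 of all 18935 genes. The 16 were chosen on the same arrays with both compounds, so nothing is read from these counts.

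Fam107a kept the widest gap to vehicle among the 16 lowest genes. It had 9.62, 9.51 and 9.41 with both compounds, 9.57, 9.61 and 9.81 with RU486 alone, and 6.73, 8.39 and 8.46 with vehicle. Cultures with both compounds and with RU486 alone overlapped and lay above every vehicle array. The difference from vehicle was called with all arrays (limma adjusted p = 0.0367) and was 1.14 (SE 0.26, adjusted p = 0.137) without the 2 arrays. With all arrays, 8 genes were called against vehicle (0.0422%), all higher, and limma called 0 genes without the 2 arrays, with 1421 at an unadjusted p under 0.05. Array weights with all arrays called 3166. Agfg2 was the only one of the 16 called against RU486 alone, where 0.0475% of all genes were called lower, with a difference of -0.90 (SE 0.17, adjusted p = 0.0157), with 9.78, 9.71 and 9.08 with both compounds and 10.48, 10.37 and 10.43 with RU486. Without replicate 3 it was not called, at -0.68 (adjusted p = 0.114).

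**Figure D3:**
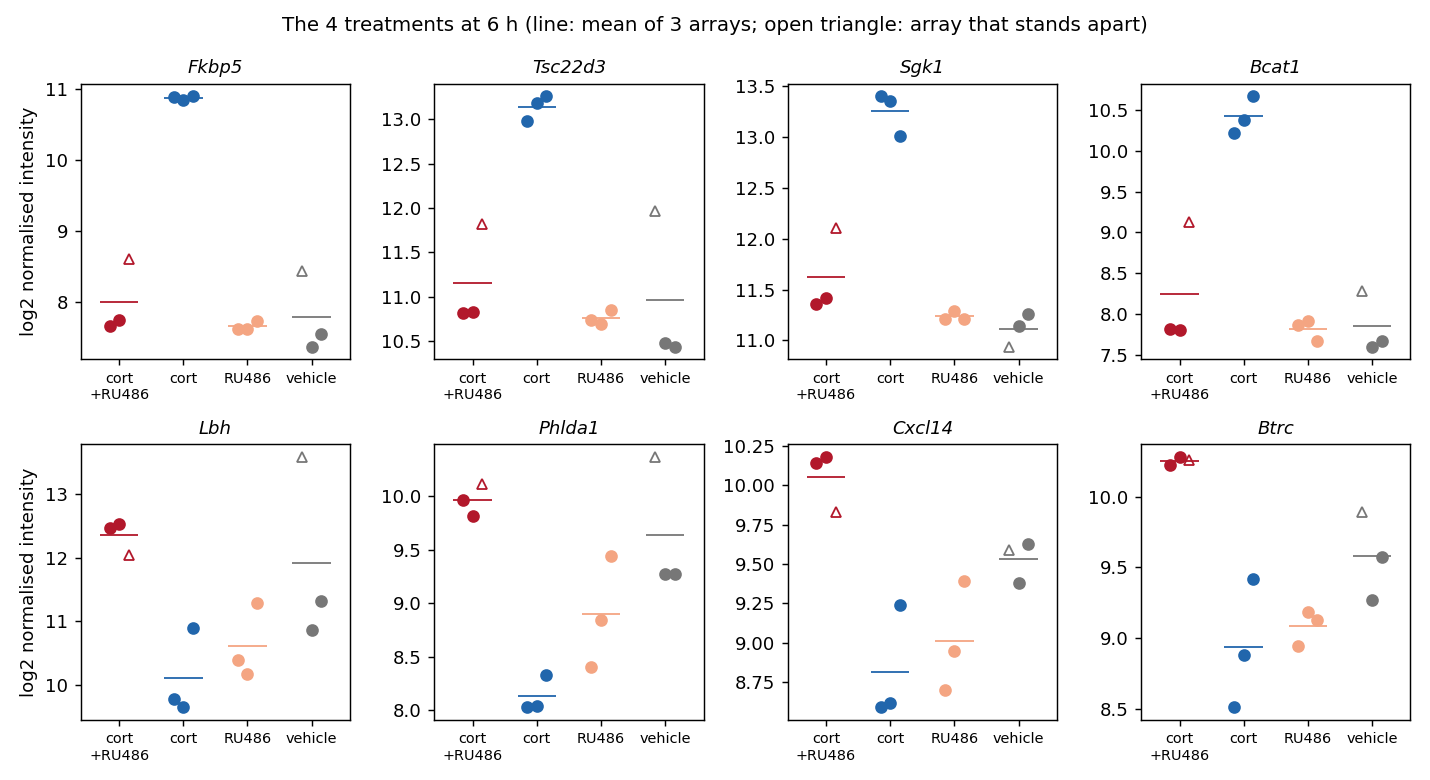
Log2 normalised intensity on each of the 3 arrays of the 4 treatments at 6 h for 4 lower genes (top row) and 4 higher genes (bottom row), with the mean of each group as a line and an open triangle for each array that stands apart. In the top row corticosterone alone is above the other groups, and in the bottom row cultures with both compounds lie above those with RU486 alone.

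Btrc and Cxcl14 are examples among the higher genes, picked after their values were seen. Btrc had 10.22, 10.28 and 10.26 with both compounds, 8.51, 8.88 and 9.42 with corticosterone, 8.94, 9.18 and 9.13 with RU486, and 9.89, 9.27 and 9.57 with vehicle. Cxcl14 had 10.14, 10.18 and 9.83 with both, 8.59, 8.62 and 9.24 with corticosterone, 8.70, 8.95 and 9.39 with RU486, and 9.59, 9.38 and 9.63 with vehicle. In both genes cultures with both compounds were above all 9 other arrays of 6 h. Btrc exceeded RU486 alone by 1.17 (SE 0.17, limma adjusted p = 0.00276) and Cxcl14 by 1.03 (SE 0.20, adjusted p = 0.0168), or without replicate 3 by 1.16 (adjusted p = 0.0335) and 1.15 (adjusted p = 0.0365). Of the 14 higher genes, 11 were called higher than with RU486 alone, where 0.544% of all genes were (103), and without replicate 3 it was 4, where 0.0898% were (17). The 14 were chosen for high values on the same arrays with both compounds, so nothing is read from these shares. The 2 compounds were given at different doses, 100 nM and 500 nM. Without the 2 arrays that stand apart, both compounds minus vehicle ran between 0.25 for Mapk6, with Pde1b next at 0.26, and 1.49 for Psme3, with a median of 0.67 and all 14 above vehicle. By limma 0 of these were called, and 11 had an unadjusted p under 0.05, as did 1421 of all 18935 genes. The choice of the 14 by the same arrays also bears on these counts, so nothing is read from them.

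Lists of genes by role were counted beside all genes, of which 0.597% were lower and 0.803% higher, and these shares stand beside every list count that follows. The lists were chosen with earlier results of these data known, so nothing is read from how far a list's share exceeds that of all genes. Without replicate 3, 25 of the 29 listed genes called were called the same way, and the other four were Cldn2, Gap43, Pdp2 and Per1. Of 24 glucocorticoid-induced genes tested, 14 were lower and 0 higher, with a median difference of -1.09 on the log2 scale, beside 0.05 for all genes. Without replicate 3 it was 13 lower, with a median of -1.14, beside -0.01. The members below the named set include Errfi1, an inhibitor of the EGF receptor, at -1.16 (SE 0.21, limma adjusted p = 0.00269) and -1.55 without replicate 3, Zbtb16, a zinc-finger repressor, at -1.03 (SE 0.16, adjusted p = 0.000332), and Bcl6, also a repressor, at -1.01 (SE 0.16, adjusted p = 0.000439). Ddit4 (REDD1), which restrains mTORC1, had -0.93 (SE 0.17, adjusted p = 0.00247). The 10 members not called included Mt1, a metallothionein, with 15.15, 15.07 and 15.36 with both compounds and 15.13, 15.13 and 15.19 with corticosterone. Dusp1, a MAP kinase phosphatase, had -0.26 (SE 0.17, adjusted p = 0.575), and Glul, glutamine synthetase, -0.89 (SE 0.31, adjusted p = 0.161).

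Transcription factors of the Kruppel-like, BTB, C/EBP and Zhx families had 6 of 22 lower and 1 higher, with a median of -0.27. With replicate 3 left out, 6 were lower and 1 higher, with a median of -0.11. Besides Klf9, Zbtb16 and Bcl6, the lower ones were Klf5 at -0.84, Zhx3 at -1.04 and Csrnp1, a cysteine- and serine-rich nuclear protein that the list also holds, at -1.07. Zhx3 had 8.30, 8.30 and 8.90 with both compounds, against 9.49, 9.67 and 9.46 with corticosterone. In the fit of all arrays Zhx2 and Zhx3, members of 1 family, moved in opposite directions, each past the threshold (limma adjusted p = 0.00969 and 0.00492). The call of Zhx2 was lost without corticosterone replicate 1 (adjusted p = 0.116) and without replicate 2 (adjusted p = 0.0758). Of 29 genes of fuel and amino acid metabolism, 6 were lower and 0 higher, with a median of -0.13. With replicate 3 left out, 5 were lower and 0 higher, with a median of -0.03. Beside those described, the lower genes in the fit of all arrays were Folh1, which cleaves N-acetylaspartylglutamate, at -1.36 (SE 0.35, adjusted p = 0.0482), and Pdp2, a pyruvate dehydrogenase phosphatase, at -1.08. Folh1 was called without replicate 3, at -1.77 (adjusted p = 0.0103), but not in the other 5 fits with 1 of the 6 arrays left out (adjusted p up to 0.182), nor with no filter (adjusted p = 0.0684), normexp (0.1 and 0.0578) or a trend (0.0503). Pdp2 was not called without replicate 3, at -0.68 (adjusted p = 0.346).

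Of 23 genes of insulin and FoxO signalling and growth restraint, 2 were lower, Ddit4 and Gadd45g, a stress sensor, at -0.63 (SE 0.13, limma adjusted p = 0.00927), with a list median of -0.32. With replicate 3 left out, 3 were lower and the list median was -0.22. Sesn1, a sestrin, was called lower as well without replicate 3, at -1.17 (adjusted p = 0.0387), where all arrays gave -0.65 (adjusted p = 0.412). Its values were 11.10, 11.12 and 12.67 with both compounds, against 12.16, 12.43 and 12.24. Of 19 heat-shock and stress genes, the small heat-shock proteins Hspb1, at -1.24 (SE 0.26, adjusted p = 0.0106), and Hspb8, at -0.41 (SE 0.09, adjusted p = 0.0202), were lower, and 0 were higher. The list median was -0.18. With replicate 3 left out, 3 of the 19 were lower and 0 higher, with a median of -0.27. Hspb8 was not called in 4 of the 6 fits with 1 array left out (adjusted p up to 0.181), nor with normexp at an offset of 16 (adjusted p = 0.0916). Hspb1 had 10.58, 10.43 and 10.47 with both compounds and 11.83, 11.59 and 11.78 with corticosterone, with no overlap.

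Other lists held few calls. Of 21 genes for the receptor, its chaperones and cofactors, Fkbp5 alone was called. The receptor gene Nr3c1 had 7.54, 7.40 and 6.75 with both compounds, against 7.16, 7.14 and 7.09, a difference of 0.10 (SE 0.17, limma adjusted p = 0.858). Of 22 genes of ion and water transport and junctions, Sgk1, Gjb6 and Cldn2, a claudin, were lower, and Cldn2 had -1.18 (SE 0.26, adjusted p = 0.0134) with all arrays and -1.16 (adjusted p = 0.0538) without replicate 3. Of 20 immediate early and MAP kinase feedback genes, Errfi1 alone was called, and of 18 inflammatory genes Lcn2 alone. Per1 was the 1 call among 17 clock genes, and Per2, its paralogue, had 10.02, 9.94 and 10.85, against 11.04, 11.06 and 10.78. Per2 overlapped between the groups through replicate 3, with -0.69 (adjusted p = 0.172) with it and -0.98 (adjusted p = 0.0464) without it.

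Bdnf, a neurotrophin, had 8.30, 8.29 and 9.36 with both compounds, against 7.85, 7.78 and 7.98, and was not called at 0.78 (SE 0.27, limma adjusted p = 0.163). By limma, 0 of 22 cholesterol genes, 0 of 25 cell-cycle genes and 0 of 19 extracellular matrix genes were called, with 3, 3 and 2 at an unadjusted p under 0.05. Without replicate 3 there was 1 call in these 3 lists, Itga5, an integrin, at 1.19 (adjusted p = 0.0365). Over all 329 listed genes tested, 26 were lower and 3 higher.

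Astrocyte markers were bright in both groups. Sox9, a glial transcription factor, had 13.78, 13.93 and 13.90 with both compounds, against 13.92, 13.99 and 13.91, and Aqp4, the water channel of astrocyte endfeet, had 13.60, 13.73 and 12.84, against 13.24, 13.31 and 13.21. Gfap, the astrocyte intermediate filament, had 14.48, 14.57 and 12.15, against 12.27, 12.51 and 13.67. The third arrays of Gfap ran against the others in both groups, and the difference was 0.92 (SE 0.64, limma adjusted p = 0.604), 1.71 (adjusted p = 0.337) without replicate 3, and 1.71 (adjusted p = 0.00484) without the vehicle array too. Of 13 astrocyte markers, 1 was called, Gjb6. Markers of other cells were also above the array median, among them the oligodendrocyte lineage factor Olig1, at 14.34 to 14.68 with both compounds and 14.39 to 14.59 with corticosterone.

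The summed linear intensity of 11 microglia markers was 4347, 4294 and 4732 with both compounds, against 2717, 3683 and 4112 with corticosterone, which did not overlap. Among all genes taken singly, 12.5% did not overlap with both compounds higher and 6.88% with both compounds lower. Nothing is therefore read from a lack of overlap. By limma 0 of the 11 were called, and 3 had an unadjusted p under 0.05. Csf1r, the receptor for the microglial growth factor CSF1, had 8.18, 8.30 and 8.42, against 7.49, 7.76 and 7.90. The sum of 11 neuron markers was 11186, 11203 and 16445, against 9465, 9404 and 9954, also without overlap, and the highest of these was replicate 3. Gap43, a growth-cone protein, was the 1 of these called higher, at 0.71 (SE 0.18, adjusted p = 0.0341), and 0.49 (adjusted p = 0.29) without replicate 3. The sums for 11 oligodendrocyte, 8 endothelium and 8 fibroblast markers overlapped between the groups, with 0 called by limma and 0 at an unadjusted p under 0.05. The sum of 13 astrocyte markers overlapped as well, at 106452, 115851 and 96463, against 97457, 102308 and 106822. The part of these cell types in the differences above was not tested.

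The arrays of 2 and 4 h are not among the 6 compared, but they entered the fit that chose the genes, through its estimate of spread, the filter and the choice of probe. Of the 16 lowest genes, 16 were called lower with both compounds at 4 h too, where 1.65% of all genes were, and 8 at 2 h, where 0.301% were. Of the 14 highest, 14 were called higher at 4 h (background 1.51%) and 9 at 2 h (background 0.481%). Sgk1 differed by -1.53 at 2 h, -1.74 at 4 h and -1.62 at 6 h, and Tsc22d3 by -1.63, -1.93 and -1.98. Btrc differed by 1.10, 1.37 and 1.32 at these times. Of 29 genes lower with both compounds at 2 and at 4 h, 24 were lower at 6 h (82.8%), and of 59 higher at both earlier times, 35 were higher (59.3%). Without replicate 3 these were 24 and 29.

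Genes that corticosterone itself changed at 2 or 4 h, against vehicle, were followed to 6 h as a set. Corticosterone raised 0.116% of all genes at 2 h and 0.454% at 4 h, and lowered 0.00528% and 0.375%. Of 87 raised genes, 62 were lower at 6 h with both compounds than with corticosterone (71.3%, against 0.597% of all genes), 0 were higher and 85 had a difference below 0, with a median of -0.94. Without replicate 3, 58 were lower, with a median of -1.04. Of 71 lowered genes, 29 were higher (40.8%, against 0.803%), 0 were lower and the median was 0.52. Without replicate 3, 21 were higher, with a median of 0.43. Without the 2 arrays that stand apart, the raised genes had medians against vehicle of 0.08 with both compounds, 0.98 with corticosterone and 0.16 with RU486. The lowered genes had 0.10, -0.37 and -0.23. These 3 comparisons share the vehicle arrays.

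**Figure D4:**
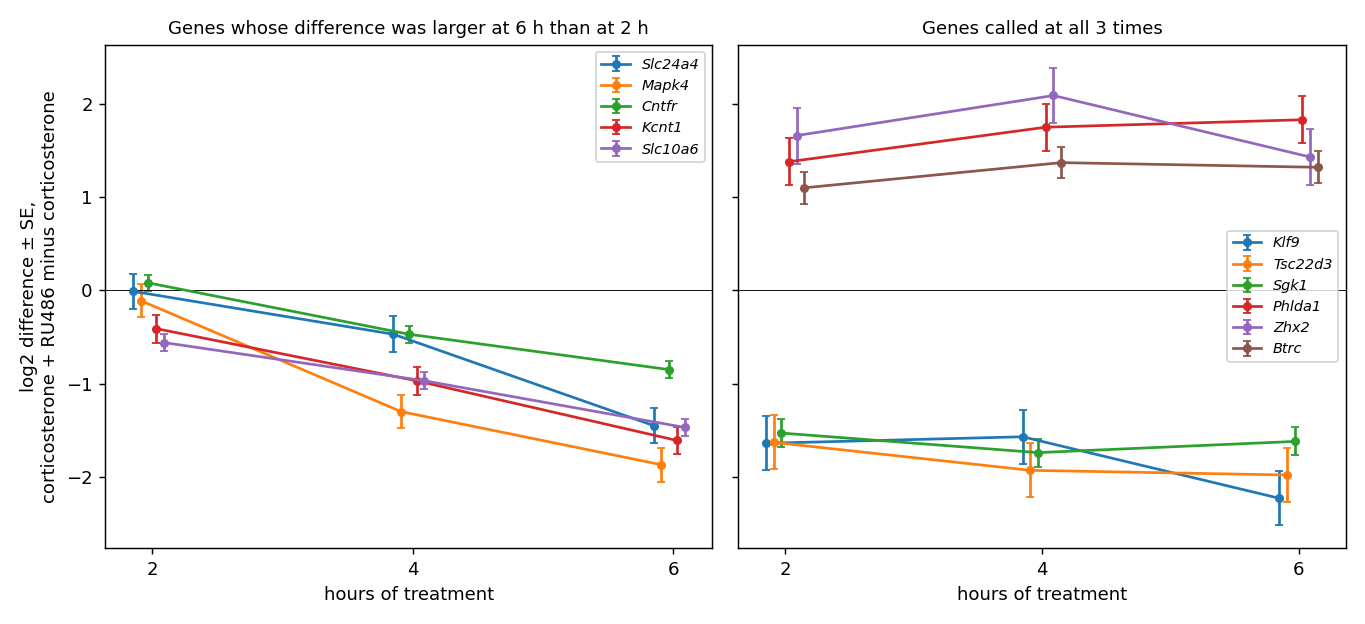
Log2 difference, corticosterone with RU486 minus corticosterone, with its standard error at 2, 4 and 6 h, for the 5 genes whose difference was larger at 6 h than at 2 h (left) and for 6 genes called at all 3 times (right). The left lines start between -0.56 and 0.08 at 2 h and end between -1.87 and -0.85 at 6 h, and the right lines are already away from 0 at 2 h.

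The difference between times was tested for every gene. The log2 difference, both compounds minus corticosterone, was more negative at 6 h than at 2 h for 5 genes (0.0264% of all), and changed upward for 0. Mapk4 had 7.66, 7.64 and 7.50 with both compounds at 2 h, against 7.80, 7.69 and 7.65 with corticosterone, groups that overlapped, whereas at 6 h they were more than 1 log2 unit apart. Its effect was -0.11 at 2 h, -1.30 at 4 h and -1.87 at 6 h, and the change between 2 and 6 h was -1.76 (SE 0.25, limma adjusted p = 0.00101). Kcnt1 changed by -1.20 (SE 0.21, adjusted p = 0.0286), with effects of -0.41, -0.97 and -1.61. At 2 h Kcnt1 had 6.48, 6.36 and 6.38 with both compounds, against 6.84, 6.67 and 6.94. At 6 h it had 6.54, 6.43 and 6.31, against 8.03, 8.12 and 7.96. Its arrays with both compounds were under the array median at both times. Cntfr, the receptor subunit for ciliary neurotrophic factor, changed by -0.93 (SE 0.13, adjusted p = 0.000954), with effects of 0.08, -0.47 and -0.85. At 2 h Cntfr had 6.57, 6.53 and 6.39 with both compounds, against 6.43, 6.33 and 6.48. At 6 h it had 6.57, 6.51 and 6.24, against 7.30, 7.35 and 7.22. Its probe lay under the array median on all 6 arrays of 2 h and on all 3 with both compounds at 6 h. The 2 probes of Cntfr disagreed: the other, which the filter drops and which is slightly brighter on average, is the one read with no filter, and gave -0.01 at 6 h (adjusted p = 0.992) and a change of 0.01 (adjusted p = 0.993).

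Slc10a6, a carrier of sulfated steroids, and Slc24a4, an exchanger of sodium for calcium and potassium, were the other two. Slc10a6 had 6.25, 6.29 and 6.37 with both compounds, against 7.73, 7.67 and 7.92 with corticosterone at 6 h, and 6.48, 6.54 and 6.41, against 7.08, 7.03 and 7.0 at 2 h. Slc10a6 was already called at 2 h, at -0.56 (limma adjusted p = 0.00282), and at 4 h, at -0.97 (adjusted p = 1.53e-07), with no overlap at 2 h and with both compounds under the array median at 2 and 6 h. Its change was -0.91 (SE 0.13, adjusted p = 0.00101). At 6 h the probes of Kcnt1, Cntfr and Slc10a6 exceeded the array median only on the 3 corticosterone arrays. Those arrays are enough to pass the filter, so it was met through the group where these genes are high. Nothing further is read from the calls of Kcnt1, Cntfr and Slc10a6. Slc24a4 had 7.74, 7.71 and 6.80, against 8.66, 9.12 and 8.82 at 6 h, and 8.24, 7.82 and 7.95, against 7.98, 8.05 and 8.0 at 2 h, with overlap at 2 h. Its change was -1.44 (SE 0.27, adjusted p = 0.0389). Between 4 and 6 h limma called 0 genes, with 499 at an unadjusted p under 0.05, and array weights called 333.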

How the data were processed

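Total RNA was measured on Illumina bead arrays, 1 biotin-labelled sample per array. The deposited value table holds linear intensities of 45281 probes on 36 arrays, made with GenomeStudio per the submitters' processing notes. From the values, the authors' intensities were quantile-normalized (array medians 110.5 to 111.2) with no background subtracted, which shrinks the differences of dim genes. A further table gave gene symbols only, and its 72 per-sample columns match no label and were not used.

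The log2 of each intensity was taken. A probe had to exceed the array median on 3 arrays or more, which 28397 did, and each gene was read by its brightest probe. Of 18935 genes, 11396 names were current in RefSeq's gene table, 3040 came from a synonym there and 4499 are as in the file. limma 3.58.1 (R 4.3.3) fitted 12 group means with lmFit and eBayes, adjusting by Benjamini-Hochberg over all genes. Differences are corticosterone with RU486 minus corticosterone unless another pair is named. Promoter windows were matched by symbol to RefSeq. Plots used matplotlib 3.10.9, and the fit was tested on simulated data.

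The named genes are the 16 lowest and 14 highest called with and without replicate 3 of cultures with both compounds whose groups did not overlap, without predicted genes and clones, plus members of 20 lists (376 genes, 329 tested) and the 3 genes that this array moved most among those called with or without it. Car14 and the genes called between times were named after their values were seen. Members and lists were chosen with earlier results of these data known. Alternatives were other filters, all probes, normexp, array weights, a trend, fewer groups in the fit, a replicate block and left-out arrays. The number of arrays limits the precision. One result is not reported here.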

Additional observations from a re-analysis of the deposited data

Results flagged for a closer look

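The difference between cultures with corticosterone and RU486 and cultures with corticosterone changed between 2 and 6 h for 5 genes, by an interaction term in limma over all 36 arrays. The effect at 6 h minus the effect at 2 h was -1.76 for Mapk4, -1.44 for Slc24a4, -1.2 for Kcnt1, -0.93 for Cntfr and -0.91 for Slc10a6, on the log2 scale. Without the 2 arrays that stand apart the values were -1.5, -1.13, -1.14, -0.83 and -0.94. Cntfr gave 0.01 with no filter, where its other probe is read. At 6 h Kcnt1, Cntfr and Slc10a6 exceeded the array median only on the corticosterone arrays, which are enough to pass the filter.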

How the results depend on the processing

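The 265 calls of both compounds against corticosterone became 6246 with array weights, 24 with only the 4 groups of 6 h in the fit, 6 with only the 2 groups compared, 1934 with those groups and both compounds as 2 arrays (chosen after seeing the data), 847 without both arrays that stand apart, and 90 to 359 with 1 array left out. The 5 calls between 6 and 2 h became 90 with weights, 3 with normexp at an offset of 16 or 50, 2 with the stricter filter, 0 with only the groups compared, 17 without both arrays and 3 to 5 with 1 left out. The 0 between 6 and 4 h became 333 with weights. The 8 against vehicle became 3166 with weights, 0 with normexp at 16, 5 at 50, 0 with 4 groups, 0 with the groups compared, 5 with the stricter filter, 0 with a trend, 0 without both arrays and 0 to 1505 with 1 left out. The 112 against RU486 became 5836 with weights, 37 with normexp at 16, 0 with 4 groups, 0 with the groups compared, 15 with a trend, 386 without both arrays and 0 to 157 with 1 left out. The 91 steroid-response genes called became 145 with weights, 23 with 4 groups, 6 with the groups compared, and 60 to 92 with 1 left out. The cause was not tested.

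The 30 named genes kept their direction in every alternative run. All were called except 17 with only the 4 groups of 6 h, 26 with only the groups compared, and 7 and 5 without corticosterone replicate 1 or 2. The stricter filter tested 29 of them. With a replicate block the main count was 307, that against vehicle 26, and Folh1 was not called (adjusted p = 0.0547). The labels give the arrays of a group only a number. Between the 2 groups compared, deviations of same-numbered arrays from their group means correlated at -0.18, -0.07 and -0.25, and 0 arrays correlated best with their own number. The deviations of cultures with both compounds include the array that stands apart, so these values cannot tell whether same-numbered arrays belong together. Dim genes near the array median limit what can be seen, since no background had been subtracted.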
